A study of Homo sapiens with 18 samples.

Results

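The 10 genes described here, *CDCA5*, *SMC1A*, *SMC3*, *RAD21*, *STAG1*, *STAG2*, *WAPL*, *PDS5A*, *PDS5B* and *ESCO2*, encode cohesin and the proteins that control how it holds sister chromatids together. They were taken by symbol from the 57500 genes of the count tables, as a list of cohesin subunits and regulators known to be sensitive to the loss of splicing factors, and all 10 were found. RNA was sequenced from 18 libraries of polyadenylated RNA, 9 from the Ewing sarcoma line ES8 and 9 from the rhabdomyosarcoma line Rh30, with 3 replicates (A, B and C) in each of 6 groups. All cells carried dCas9-KRAB, the CRISPRi repressor that silences the gene to which an sgRNA leads it, and all were kept in puromycin for 72 hours. In each line, the groups were parental cells with a control sgRNA (sgCTL), parental cells with an sgRNA against *DNAJC17* (sgDNAJC17), and cells with the same sgRNA and a stable 3xFLAG-tagged *DNAJC17* cDNA that lacks the RNA recognition motif (ΔRRM), cloned into the vector pLV-EF1-Hygro. No ΔRRM library carried sgCTL, so the allele and the sgRNA were not varied separately. The study's methods name 10 days of hygromycin selection for pLV-EF1-Hygro constructs and state none for parental cells. Effects of the allele cannot be told apart from those of this transduction and selection. The replicates were plated as triplicates of 1 line, and p-values therefore measure the spread between these samples.

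Cohesin is a ring built from the ATPases SMC1A and SMC3 and the kleisin RAD21, to which 1 of the paralogs STAG1 and STAG2 binds. PDS5A or PDS5B joins the ring and either helps WAPL to open it or holds the cohesion protein sororin, the product of *CDCA5*, which keeps it closed. ESCO2 acetylates SMC3 during replication and thereby lets sororin bind. *CDCA5* is known for a transcript whose introns are removed poorly when parts of the spliceosome are lost, and *STAG2* is a tumor suppressor that is often lost in Ewing sarcoma. Counts per gene hold no information on which exons a transcript contains, so the levels below are sums over all transcripts of a gene.

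On *DNAJC17* itself, the target of the sgRNA, replicates A, B and C with sgCTL had 559, 583 and 625 counts in ES8 and 474, 522 and 461 in Rh30. With sgDNAJC17 these were 59, 77 and 67 counts in ES8 and 113, 81 and 104 in Rh30. Genes on the opposite strand share 26.1% of the exonic bases of *DNAJC17*, and whether the counting used the strand is not given in the sources used here. In the ΔRRM libraries the gene held between 9849 and 14449 counts, which include the added cDNA and so do not show the endogenous transcript. Library totals ran from 35342393 to 48245989 counts. Levels are given as CPM, counts scaled by TMM over all 18 libraries to a common library size, divided by the kb of merged exon of the gene. This length is that of the annotation and not of the transcripts expressed. For *SMC3* it is 4275 bases beside 6607 in the longest annotated transcript, and for *ESCO2* 7973 beside 3805. Orders of genes and ratios between genes therefore depend on it, while comparisons of 1 gene between libraries do not. The Ewing sarcoma gene *NR0B1* had between 2037 and 3426 counts in every ES8 library and at most 1 in Rh30. *CHRNA1*, a receptor gene of muscle, was at 0 in 8 of the 9 ES8 libraries, but had 25 counts in ES8 ΔRRM replicate C, where *MYOD1* had 81 counts and *DES* 78, both the highest of the ES8 libraries. The ES8 sgDNAJC17 replicate A stood furthest from its group, with an SD of its log2 deviations over all genes of 0.184, against 0.0791 to 0.155 in the other ES8 libraries, and results for ES8 are therefore also given without it.

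The first question was how much of each cohesion gene the lines contain before the knockdown. In sgCTL cells of ES8, *RAD21* was the highest of the 10 genes, at 55.6 ± 2.48 CPM per kb (SD, n = 3), followed by *CDCA5* at 29.8 ± 0.342 and *SMC3* at 27.5 ± 1.26. *SMC1A* at 20.4 ± 0.450, *PDS5A* at 12.6 ± 0.381, *WAPL* at 9.93 ± 0.561 and *STAG1* at 8.88 ± 0.180 CPM per kb came next. *PDS5B* at 5.16 ± 0.225, *ESCO2* at 2.05 ± 0.222 and *STAG2* at 0.0173 ± 0.00872 CPM per kb ended the order in ES8. In sgCTL cells of Rh30, the level of *SMC1A* led, with 35.0 ± 1.70 CPM per kb (SD, n = 3), and *SMC3* at 31.6 ± 1.88 and *CDCA5* at 31.0 ± 1.22 lay close behind it. *PDS5A* at 21.8 ± 0.741 and *RAD21* at 21.2 ± 0.748 CPM per kb came next. *STAG2* at 13.5 ± 0.333, *WAPL* at 6.12 ± 0.414, *STAG1* at 4.90 ± 0.131, *ESCO2* at 3.91 ± 0.206 and *PDS5B* at 3.15 ± 0.0926 CPM per kb completed the order in Rh30. In Rh30 the libraries of *SMC3* and *CDCA5* overlapped, as did those of *PDS5A* and *RAD21*, so these neighbours in the order did not differ beyond their spread. All other neighbours were apart in every library of their line, the narrowest gap in CPM per kb in ES8 lying between *WAPL*, with 9.43 to 10.5 CPM per kb, and *STAG1*, with 8.68 to 9.03.

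**Figure D1:**
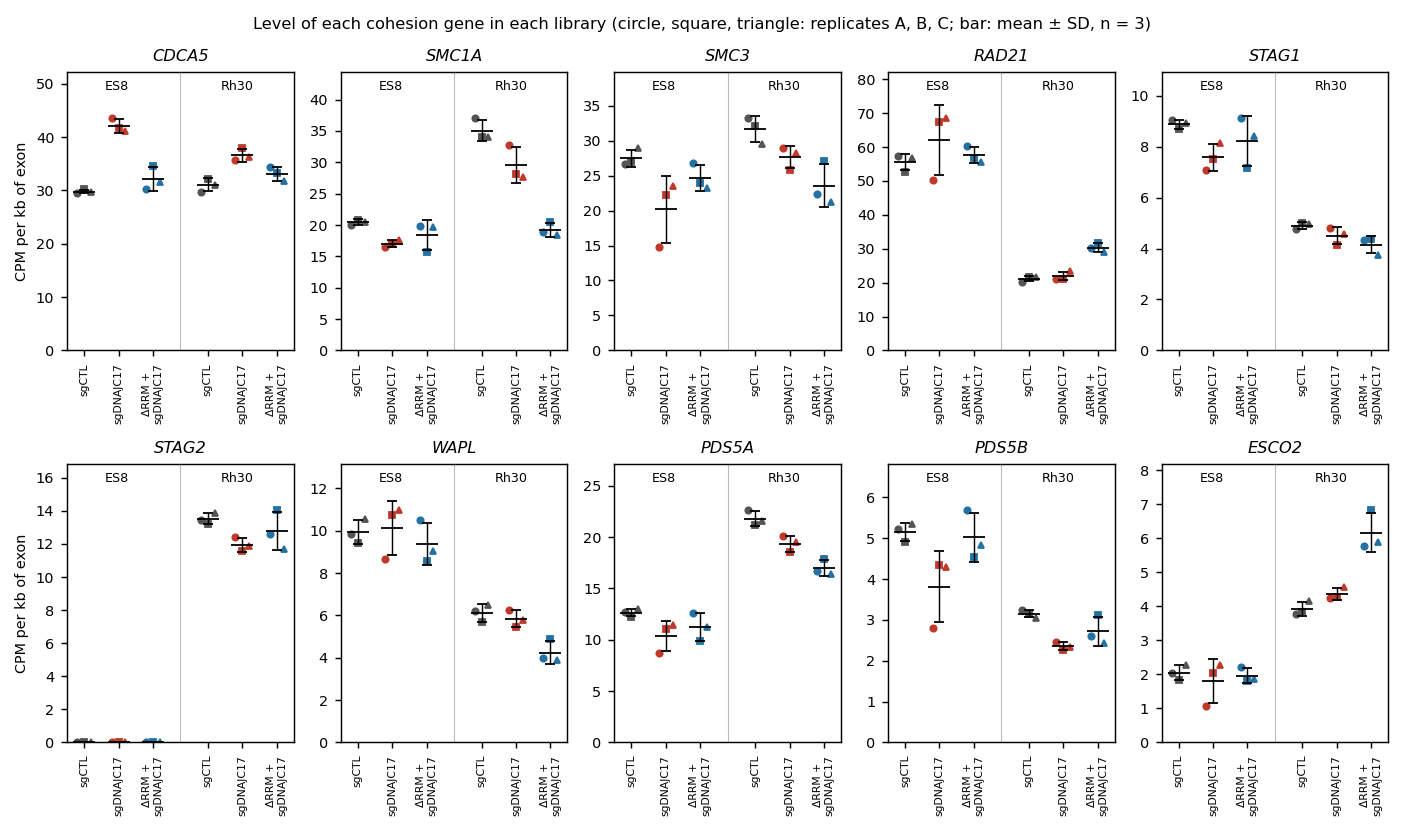
Level of each of the 10 genes in each of the 18 libraries, in CPM per kb of exon on a linear axis from 0, by line and group. Points are replicates and bars the mean ± SD of 3 libraries. *CDCA5* is above its sgCTL libraries in every sgDNAJC17 library of both lines, while *STAG2* lies on the axis in ES8 and between 11.5 and 14.0 CPM per kb in Rh30.

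The widest gap between the lines was in *STAG2* (ENSG00000101972, plus strand of chromosome X, 123960212 to 124422664 of GRCh38, the build of the files). It held 11, 6 and 4 counts in the sgCTL libraries of ES8, 7, 5 and 17 with sgDNAJC17 and 18, 9 and 11 with ΔRRM. In Rh30 it held 4484, 4732 and 4837 counts with sgCTL, 4562, 3478 and 3709 with sgDNAJC17, and 3773, 4415 and 2808 with ΔRRM. The lowest Rh30 library thus held 2808 counts and the highest ES8 library 18, and between the sgCTL libraries the log2 difference, Rh30 minus ES8, was 9.55 (standard error, SE, 0.12, adjusted p = 7.71e-45, edgeR's quasi-likelihood test). Genes on the opposite strand share 3.29% of the exonic bases of *STAG2*. One of them, *TENM1*, held 5838 to 6572 counts in the sgCTL libraries of ES8 and 22 to 37 in Rh30, and whether the counting used the strand is not given in the sources used here, so the source of the ES8 counts was not tested. Of the genes that start within 1 Mb of *STAG2*, chosen after its values were seen, *XIAP* held 1189 to 1542 counts in sgCTL cells of ES8 and 789 to 929 in Rh30, and *THOC2* 2215 to 2720 and 1758 to 1809. *GRIA3*, which also starts within that distance, held 108 to 122 counts in sgCTL cells of ES8 and 0 in Rh30. These neighbours thus had more raw counts, not scaled for library size, in every sgCTL library of ES8 than in those of Rh30.

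Its paralog *STAG1* (ENSG00000118007, minus strand of chromosome 3, 136336233 to 136752403) went the other way. *STAG1* had 9.03, 8.68 and 8.93 CPM per kb in the sgCTL libraries of ES8 and 4.75, 5.00 and 4.96 in those of Rh30, a log2 difference, Rh30 minus ES8, of -0.88 (SE 0.05, adjusted p = 1.89e-19, edgeR). As a share of the summed level of the paralogs, *STAG2* made up 0.194% ± 0.0950 in ES8 and 73.4% ± 0.725 in Rh30 (SD, n = 3), and the sum itself was 8.90 ± 0.184 CPM per kb in ES8 and 18.4 ± 0.355 in Rh30. ES8 cells therefore had more *STAG1* RNA than Rh30 cells but a lower sum over both genes, with no overlap between the libraries. Of the exonic bases of *STAG1*, 21.2% are shared with *PCCB* on the opposite strand, the largest such share among the 10 genes, and reads in them cannot be told apart without strand.

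The second pair of paralogs, *PDS5A* and *PDS5B*, also differed between the lines. *PDS5A* (minus strand of chromosome 4, 39822863 to 39977956) was higher in Rh30 sgCTL than in ES8 sgCTL cells by a log2 difference of 0.76 (SE 0.05, adjusted p = 4.53e-19, edgeR), and *PDS5B* (plus strand of chromosome 13, 32586427 to 32778019) was lower, with a log2 difference of -0.74 (SE 0.05, adjusted p = 1.23e-16). The log2 ratio of the level of *PDS5B* to that of *PDS5A* was -1.29 ± 0.02 in ES8 and -2.79 ± 0.04 in Rh30 (SD, n = 3), so *PDS5A* exceeded *PDS5B* in both lines and by more in Rh30. Neither gene shares exonic bases with another gene in the files.

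**Figure D2:**
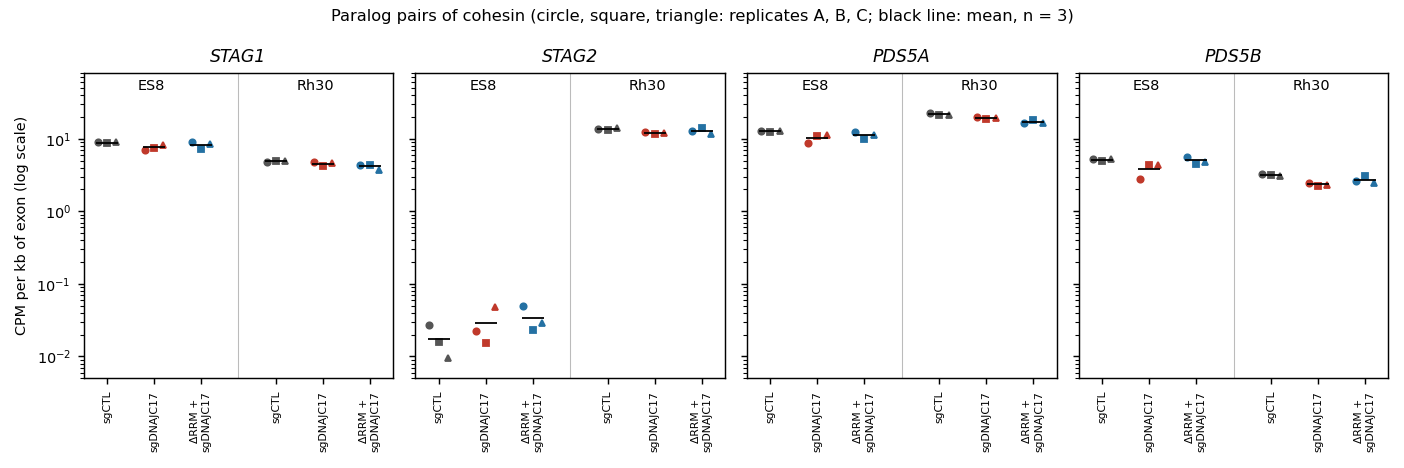
Levels of the paralogs *STAG1* and *STAG2* and of *PDS5A* and *PDS5B* in each library, in CPM per kb of exon on a logarithmic axis. Points are replicates and black lines the mean of 3 libraries. *STAG2* lies below 0.05 CPM per kb in all ES8 libraries and above 11 in all Rh30 libraries.

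Among the ring subunits, *RAD21* (minus strand of chromosome 8) was lower in Rh30, with 20.3, 21.6 and 21.7 CPM per kb in the sgCTL libraries against 57.3, 52.8 and 56.7 in ES8. Its log2 difference, Rh30 minus ES8, was -1.42 (SE 0.05, adjusted p = 2.26e-28, edgeR), and the log2 ratio of *RAD21* to *SMC3* was 1.02 ± 0.08 in ES8 and -0.58 ± 0.13 in Rh30 (SD, n = 3). Of the exonic bases of *RAD21*, 14.4% are shared with genes on the opposite strand. *SMC1A* was higher in Rh30 by 0.75 (SE 0.05, adjusted p = 8.20e-19), with 34.0 to 37.0 CPM per kb against 20.0 to 20.9. *ESCO2*, the acetyltransferase, was higher in Rh30 by 0.91 (SE 0.07, adjusted p = 1.35e-15), and *WAPL*, the release factor, was lower (log2 difference -0.72, SE 0.06, adjusted p = 8.52e-16). *SMC3* was higher in Rh30 by only 0.18 (SE 0.05, adjusted p = 0.00125), and the difference fell to -0.04 (adjusted p = 0.505) when library totals replaced TMM and missed the threshold with all 18 libraries in 1 fit (0.20, adjusted p = 0.101) and when genes under 10 counts in any library were left out (0.09, adjusted p = 0.106). *CDCA5* differed by 0.03 (SE 0.05, adjusted p = 0.527) under TMM, and by -0.18 (adjusted p = 5.99e-04) under library totals. In all, 5 of the 10 genes were called higher in Rh30 and 4 lower, in a comparison where 42.0% of the 17925 genes tested were higher and 45.5% lower. A gene was called at an adjusted p under 0.05 over all genes tested, without a minimum fold.

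After the *DNAJC17* knockdown in ES8, 1 of the 9 genes that passed the filter on low counts rose, *CDCA5*, and 5 fell, *SMC1A*, *SMC3*, *STAG1*, *PDS5A* and *PDS5B*. *RAD21*, *WAPL* and *ESCO2* did not pass the test, and *STAG2* was not tested. Of all genes tested in this comparison, 13.6% rose and 13.8% fell, and no member reached a fold change of 2. At that fold, 1.66% of all genes tested were called up and 0.286% down. The median log2 fold change was -0.25 over the 9 genes and -0.02 over all genes tested. Without sgDNAJC17 replicate A, *RAD21* also passed the test, so that 2 genes rose and the count of genes that fell stayed at 5, where 22.4% of all genes tested rose and 22.9% fell. Without any 1 of the sgCTL libraries, *SMC1A* was the sole gene that still passed downwards, so that the count fell from 5 to 1, where 6.69% to 7.23% of all genes tested fell. Marker genes moved with the sgRNA in ES8 as well. The summed raw counts of 5 fibroblast and immune genes went from 10824 to 11383 in the sgCTL libraries to 6320 to 7261 with sgDNAJC17, and those of 6 rhabdomyosarcoma genes from 4406 to 4749 to 2562 to 2931. Both fibroblast and immune genes that were tested fell, as did 1 of the 3 rhabdomyosarcoma genes tested. Their part in the results for ES8 was not tested. In bulk RNA, fewer cells in the phase of the cycle where a gene is expressed and less RNA per cell cannot be told apart.

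*CDCA5* (ENSG00000146670, minus strand of chromosome 11, 65066300 to 65084164), which encodes sororin, had 29.5, 30.2 and 29.7 CPM per kb in the sgCTL libraries of ES8 and 43.5, 41.7 and 41.1 with sgDNAJC17. All sgDNAJC17 libraries lay above all sgCTL libraries, and the log2 fold change was 0.48 (SE 0.05, adjusted p = 4.37e-04, edgeR). In the raw tables these were 5815, 5566 and 5910 counts against 6467, 6417 and 6943. In Rh30 the same gene had 29.8, 32.2 and 31.1 CPM per kb with sgCTL and 35.6, 37.9 and 36.3 with sgDNAJC17, again without overlap, and rose by 0.25 on the log2 scale (SE 0.06, adjusted p = 0.00620). The difference of the effects, Rh30 minus ES8, was -0.20 (SE 0.09, adjusted p = 0.191 from edgeR's interaction test) and did not pass the test. *CDCA5* was called in both lines under each of the 15 alternatives per line, with log2 fold changes of 0.42 to 0.50 in ES8 and 0.19 to 0.28 in Rh30.

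Promoter letters are shown for *CDCA5* because it moved against *SMC1A* and *STAG1* in the ES8 knockdown while sharing with them the motif TTTCCCGC, one of the spellings bound by E2F factors, which drive genes of the S phase. The motif was chosen for display with these directions known. RefSeq promoters (GRCh38.p14, 250 bases before to 50 after a gene's start) were matched for all 10 genes, with 11 promoters since *STAG2* has 2. TTTCCCGC, searched on both strands, was found in 3 of the 11 and in 1.63% of all 35116 promoters. The windows below are read 5′ to 3′ on the strand of the gene, with the motif in capitals.
*CDCA5*, chr11:65084068-65084095, minus strand: ttccgcttccTTTCCCGCagggcgggta
*SMC1A*, chrX:53422657-53422684, minus strand: cactgcggcgTTTCCCGCgcgggctacc
*STAG1*, chr3:136752544-136752571, minus strand: agcggccacgTTTCCCGCcccgctggtg
The motif starts 45 bases before the RefSeq start of *CDCA5*, 20 before that of *SMC1A* and 183 before that of *STAG1*. After the knockdown in ES8, 1 of the 3 genes with the motif rose and 2 fell. In Rh30 *CDCA5* rose, *SMC1A* fell and *STAG1* was not called. The spelling TTTGGCGC was found in *STAG2* alone (0.652% of all promoters), TTTCGCGC and TTTGCCGC in none of the 11, the motif CCAAT in 6 of the 11 (34.6% of all) and TTTGAA, the core of the cell cycle homology region, in those of *SMC3* and *PDS5B* (15.2% of all). A match describes the letters of a window and no binding site.

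Of the ring subunits, *SMC1A* (minus strand of chromosome X, 53374149 to 53422728) had 20.0, 20.9 and 20.5 CPM per kb in ES8 sgCTL libraries and 16.5, 17.0 and 17.6 with sgDNAJC17, without overlap. Its log2 fold change of -0.29 (SE 0.05, adjusted p = 0.00403, edgeR) stayed called under all 15 alternatives. *SMC3* (plus strand of chromosome 10, 110567691 to 110604636) had 26.6, 26.9 and 28.9 CPM per kb with sgCTL and 14.7, 22.2 and 23.6 with sgDNAJC17. The groups did not overlap, but replicate A was far below the others, and the log2 fold change was -0.47 (SE 0.14, adjusted p = 0.0340) with it and -0.29 (SE 0.04, adjusted p = 2.50e-08) without it. *RAD21* had 57.3, 52.8 and 56.7 CPM per kb with sgCTL and 50.2, 67.5 and 68.5 with sgDNAJC17. Here too replicate A was the low library, and the log2 fold change was 0.14 (SE 0.10, adjusted p = 0.364) with it and 0.26 (SE 0.03, adjusted p = 4.72e-10) without it. The log2 ratio of *RAD21* to *SMC3* moved from 1.02 ± 0.08 to 1.64 ± 0.12 (SD, n = 3), without overlap, and in Rh30 from -0.58 ± 0.13 to -0.34 ± 0.10, where the groups overlapped but each sgDNAJC17 library lay above the sgCTL library of its letter, by 0.26, 0.29 and 0.18. *STAG1*, the more abundant of the STAG paralogs in ES8, had 7.08, 7.53 and 8.14 CPM per kb with sgDNAJC17, all below sgCTL, and fell by 0.25 on the log2 scale (SE 0.07, adjusted p = 0.0193), a call that narrowly missed with all 18 libraries in 1 fit (adjusted p = 0.0501) and without sgDNAJC17 replicate B (0.0617).

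Among the regulators in ES8, *PDS5A* had 8.69, 11.0 and 11.4 CPM per kb with sgDNAJC17 against 12.7, 12.2 and 13.0 with sgCTL, a log2 fold change of -0.31 (SE 0.09, adjusted p = 0.0306, edgeR). *PDS5B* had 2.81, 4.33 and 4.30 against 5.22, 4.91 and 5.34 CPM per kb, a log2 fold change of -0.46 (SE 0.14, adjusted p = 0.0347). Neither gene overlapped between the groups, and without replicate A their log2 fold changes were -0.20 and -0.28 with adjusted p-values of 7.58e-06 and 5.52e-07. *ESCO2* (plus strand of chromosome 8) had 1.06, 2.05 and 2.28 CPM per kb with sgDNAJC17 and 2.05, 1.83 and 2.27 with sgCTL. The groups overlapped, and its log2 fold change was -0.21 (SE 0.22, adjusted p = 0.522) with replicate A and 0.05 (adjusted p = 0.633) without it. *WAPL* had 8.65 to 11.0 CPM per kb with sgDNAJC17 and 9.43 to 10.5 with sgCTL, and its log2 fold change was 0.00 (SE 0.09, adjusted p = 0.978).

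After the *DNAJC17* knockdown in Rh30, *CDCA5* rose and 3 of the 10 genes fell, *SMC1A*, *STAG2* and *PDS5B*, where 16.1% of all genes tested rose and 16.2% fell. The median log2 fold change was -0.13 over the 10 genes and 0.00 over all genes tested, and again no member reached a fold change of 2. At that fold, 0.767% of all genes tested were called up and 0.786% down. Here the replicates that share a letter also deviated together, and with the letter as a block 2 genes rose, *CDCA5* and *ESCO2*, and 5 fell, *SMC3* and *PDS5A* in addition to the other three, where 23.5% of all genes tested rose and 23.5% fell. The blocked adjusted p-values of the genes so added were 0.00756 for *ESCO2*, 0.00155 for *SMC3* and 5.41e-04 for *PDS5A*. With the block and the correction for GC content and length described further on, *ESCO2* moved from 0.17 to 0.08 and was not called (adjusted p = 0.185). The summed counts of 9 epithelial marker genes moved with the sgRNA in Rh30, from 50 to 65 in the sgCTL libraries to 498 to 850 with sgDNAJC17 and 476 to 601 with ΔRRM, and 5 of the 9 had at most 3 counts in every sgCTL library. Their part in the results for Rh30 was not tested.

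*PDS5B* had the largest fitted change of the 10 genes in Rh30. It had 3.24, 3.16 and 3.06 CPM per kb with sgCTL and 2.45, 2.26 and 2.34 with sgDNAJC17, with no overlap, and fell by 0.41 on the log2 scale (SE 0.07, adjusted p = 5.42e-04, edgeR), a call that held under all 15 alternatives. *PDS5A* had 22.6, 21.2 and 21.6 CPM per kb with sgCTL and 20.1, 18.5 and 19.5 with sgDNAJC17, also without overlap, but its log2 fold change of -0.15 (SE 0.06, adjusted p = 0.0587) missed the threshold without the block. The log2 ratio of *PDS5B* to *PDS5A* moved from -2.79 ± 0.04 to -3.04 ± 0.01 in Rh30 (SD, n = 3), without overlap, and from -1.29 ± 0.02 to -1.46 ± 0.15 in ES8.

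*SMC1A* in Rh30 had 37.0, 34.0 and 34.1 CPM per kb with sgCTL and 32.8, 28.2 and 27.7 with sgDNAJC17. The log2 fold change was -0.23 (SE 0.07, adjusted p = 0.0205, edgeR), but the call was lost without sgCTL replicate A (-0.19, adjusted p = 0.0965), without sgDNAJC17 replicate B (-0.20, adjusted p = 0.115) or C (-0.19, adjusted p = 0.0718), and after a correction for GC content and length (-0.08, adjusted p = 0.190). With that correction and the block together, *SMC1A* was called at the same value (adjusted p = 0.0240). *STAG2*, which ES8 nearly lacks, had 13.5, 13.2 and 13.9 CPM per kb with sgCTL and 12.4, 11.5 and 11.8 with sgDNAJC17. It fell by 0.16 on the log2 scale (SE 0.06, adjusted p = 0.0442), and the call was kept without sgDNAJC17 replicate A alone among the 6 fits that left out 1 library, the others giving adjusted p-values of 0.0690 to 0.189. All 18 libraries in 1 fit gave *STAG2* an adjusted p of 0.194 here. *STAG1* had 4.75 to 5.00 CPM per kb with sgCTL and 4.15 to 4.81 with sgDNAJC17, with a log2 fold change of -0.11 (SE 0.07, adjusted p = 0.269), and the share of *STAG2* in the sum of both paralogs was 73.4% ± 0.725 and 72.6% ± 0.805 (SD, n = 3). *SMC3* had 33.2, 32.2 and 29.6 CPM per kb with sgCTL and 28.9, 25.8 and 28.3 with sgDNAJC17, a log2 fold change of -0.18 (SE 0.07, adjusted p = 0.0546), and DESeq2 called both *SMC3* and *PDS5A* here (adjusted p = 0.0470 and 0.0463). *RAD21* at 0.07 (adjusted p = 0.479) and *WAPL* at -0.05 (adjusted p = 0.605) overlapped between the groups, and *ESCO2* had 3.77, 3.82 and 4.15 CPM per kb with sgCTL and 4.23, 4.28 and 4.57 with sgDNAJC17, a log2 fold change of 0.17 (adjusted p = 0.0761 without the block).

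**Figure D3:**
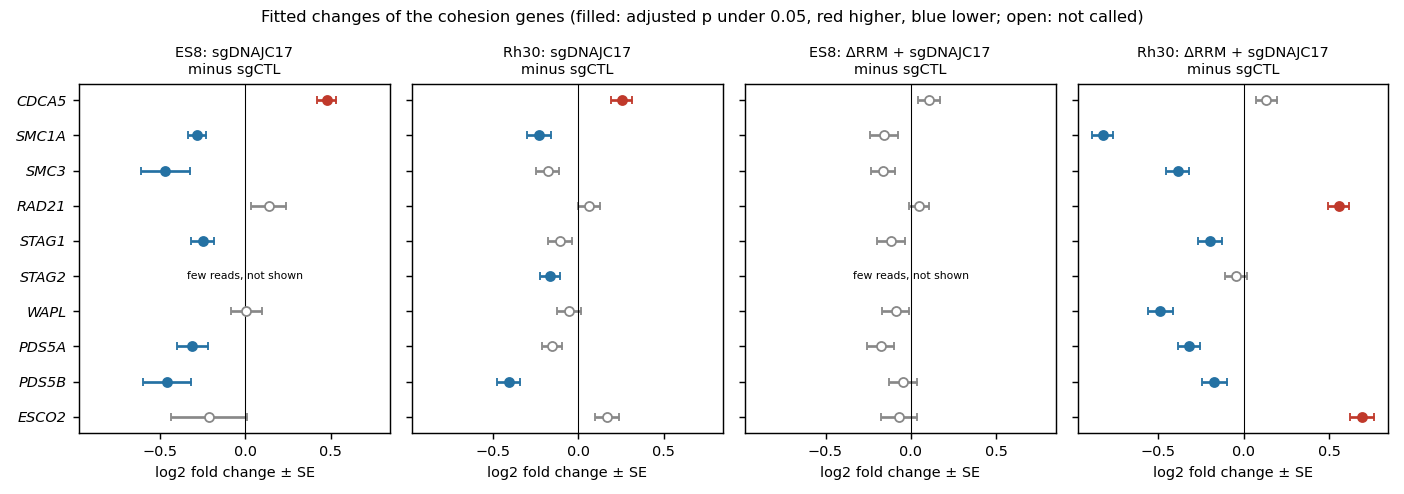
Fitted log2 fold changes with standard errors of the 10 genes, for sgDNAJC17 minus sgCTL and for ΔRRM with sgDNAJC17 minus sgCTL in each line. Filled points have an adjusted p under 0.05. In ES8 *CDCA5* lies at 0.48 with sgDNAJC17 and at 0.10 with ΔRRM, while in Rh30 *SMC1A* lies at -0.23 and -0.83.

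The knockdown effects in both lines were set against each other with an interaction test over the 12 parental libraries, which answers whether a gene responded differently in Rh30 and ES8. None of the 10 genes was called, where 5.23% of all genes tested were called higher and 4.55% lower. *SMC3* had a difference of 0.32, Rh30 minus ES8 (SE 0.15, adjusted p = 0.194 from edgeR), and DESeq2 also called none. After the correction for GC content and length, *RAD21* was called, with a difference of -0.21 (adjusted p = 0.0230), where 6.33% of all genes tested were called lower. The test does not show that the 9 genes tested in both lines responded alike: for *ESCO2* the difference was 0.41 with a SE of 0.22.

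In the ΔRRM cells of ES8, none of the 10 genes was called against sgCTL, where 0.0930% of the 17199 genes tested were higher and 0.0814% lower. DESeq2 called none either, with *SMC3* at -0.16 and *PDS5A* at -0.18 (adjusted p = 0.352 and 0.375). *CDCA5* had 30.2, 34.6 and 31.7 CPM per kb, above the sgCTL libraries by a narrow margin, and its log2 fold change was 0.10 (SE 0.07, adjusted p = 0.488). Against sgDNAJC17, whose libraries lay at 41.1 or more, *CDCA5* was the 1 gene of the 10 that was called, with a log2 fold change of -0.37 (SE 0.09, adjusted p = 0.0157), where 7.35% of all genes tested were higher and 7.36% lower. This call was lost with the replicate letter as a block (adjusted p = 0.0670) and without sgDNAJC17 replicate B (0.0575) or ΔRRM replicate A (0.0710) or C (0.0822). *SMC3* had 26.8, 23.9 and 23.2 CPM per kb with ΔRRM, overlapping both other groups, and its log2 fold change against sgDNAJC17 was 0.31 (SE 0.14, adjusted p = 0.170). *PDS5B* had 5.68, 4.54 and 4.84 CPM per kb with ΔRRM, all above the sgDNAJC17 libraries, with a log2 fold change of 0.42 (SE 0.15, adjusted p = 0.0791). Without sgDNAJC17 replicate A the value for *PDS5B* was 0.24 (adjusted p = 0.114), while it was called with DESeq2 (adjusted p = 0.0450), with all 18 libraries in 1 fit (0.0141), without the filter on low counts (0.00349) and after the correction for GC content and length (7.86e-04). The last of these settings also called *SMC3* (adjusted p = 0.0137), as did the fit without the filter (0.0355). Comparisons of ΔRRM and of sgDNAJC17 with sgCTL share the sgCTL libraries, so their values are not independent and are only given side by side.

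In the ΔRRM cells of Rh30, 8 of the 10 genes were called against sgCTL, *RAD21* and *ESCO2* upwards and *SMC1A*, *SMC3*, *STAG1*, *WAPL*, *PDS5A* and *PDS5B* downwards, in a comparison where 33.8% of all genes tested were higher and 35.0% lower. The summed raw counts of the 6 rhabdomyosarcoma markers were 60180 to 80316 in these libraries against 124288 to 133685 with sgCTL, and 5 of the 6 were called lower. Those of the 6 Ewing sarcoma markers were 4777 to 6736 against 10891 to 11490, but 4 of the 6 had at most 3 counts in these groups. The 1 Ewing marker tested was called lower with ΔRRM against sgCTL (log2 fold change -0.61). With sgDNAJC17 it was called higher (0.38). The part of the markers in the results was not tested. *SMC1A* had 18.9, 20.5 and 18.3 CPM per kb, below every parental Rh30 library, and its log2 fold change against sgCTL was -0.83 (SE 0.06, adjusted p = 7.69e-18, edgeR), beside -0.23 for sgDNAJC17. The correction for GC content and length brought the value against sgCTL to -0.40 (adjusted p = 2.29e-08). *RAD21* had 30.1, 31.8 and 29.1 CPM per kb against 20.3 to 21.7 with sgCTL, a log2 fold change of 0.55 (SE 0.06, adjusted p = 6.04e-12). *ESCO2* had 5.78, 6.82 and 5.88 CPM per kb, above all other libraries, and its log2 fold change was 0.69 (SE 0.07, adjusted p = 3.73e-13). *WAPL* had 3.99, 4.87 and 3.87 CPM per kb against 5.67 to 6.49 with sgCTL, a log2 fold change of -0.49 (SE 0.07, adjusted p = 4.24e-08). *SMC3* at -0.39, *PDS5A* at -0.32, *STAG1* at -0.20 and *PDS5B* at -0.17 were lower by smaller amounts, with adjusted p-values of 1.10e-06, 7.26e-06, 0.0105 and 0.0305. *PDS5B* was called under 8 of 15 alternatives. Its call was lost with DESeq2 (adjusted p = 0.0777), with its size factors (0.0514), with all 18 libraries in 1 fit (0.142), and without sgCTL replicate A (0.101) or B (0.0561) or ΔRRM replicate A (0.176) or C (-0.11, adjusted p = 0.219). *STAG1* lost its call without ΔRRM replicate C (adjusted p = 0.0983). *CDCA5* at 0.13 (SE 0.06, adjusted p = 0.0522) and *STAG2* at -0.04 (adjusted p = 0.557) were not called. *CDCA5* was called under 6 of 15 alternatives, with DESeq2 (0.15, adjusted p = 0.0196), its size factors (0.0298), at least 10 counts in every library (0.0439), without ΔRRM replicate C (0.0431) and after the GC and length correction, alone (0.00842) or with the block (0.0107). With library totals in place of TMM, the median log2 fold change of all genes moved from -0.01 to -0.25, *CDCA5* moved to -0.10 and *STAG2* was called at -0.28 (adjusted p = 1.18e-04). The same setting moved *RAD21* to 0.32, *ESCO2* to 0.46, *SMC3* to -0.62, *PDS5A* to -0.56, *STAG1* to -0.43 and *PDS5B* to -0.41, all still called.

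Against sgDNAJC17 in Rh30, the ΔRRM libraries were higher in *RAD21* (log2 fold change 0.48, SE 0.08), *ESCO2* (0.51, SE 0.08) and *PDS5B* (0.22, SE 0.09), and lower in *SMC1A* (-0.61, SE 0.08), *WAPL* (-0.45, SE 0.09), *SMC3* (-0.22, SE 0.08) and *PDS5A* (-0.18, SE 0.08). Adjusted p-values were 1.44e-07, 2.19e-07 and 0.0258 for the genes that were higher and 1.81e-10, 6.87e-06, 0.0147 and 0.0404 for those that were lower. These 3 and 4 genes of 10 stood beside 29.4% of all genes tested that were higher and 30.5% that were lower. *CDCA5* had 34.3, 33.3 and 31.8 CPM per kb in the ΔRRM libraries, all below sgDNAJC17, but its log2 fold change of -0.13 (SE 0.08, adjusted p = 0.127) did not pass the test. *CDCA5* was called here without sgDNAJC17 replicate A (-0.17, adjusted p = 0.0419), with library totals (-0.30, adjusted p = 6.03e-04) and after the GC and length correction (-0.14, adjusted p = 0.0288), which brought *SMC1A* to -0.34. *PDS5B* lost its call without sgDNAJC17 replicate B (adjusted p = 0.117) or ΔRRM replicate B (0.301), and *SMC3* without ΔRRM replicate A (0.115) or C (0.146). *PDS5A* lost its call without sgDNAJC17 replicate B (0.0683) or C (0.0725) or ΔRRM replicate A (0.152) or C (0.117). With all 18 libraries in 1 fit, *SMC3* (adjusted p = 0.106), *PDS5A* (0.0775) and *PDS5B* (0.161) were no longer called, and library totals in place of TMM brought *PDS5B* to 0.06 (adjusted p = 0.609). *PDS5A* also lost its call with the replicate block (adjusted p = 0.0658) and after correcting for GC content and length (0.149), and both PDS5 genes lost theirs without the filter on low counts (0.0567 and 0.0591).

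Over the 18 libraries, after removing the mean of each line, some pairs of the 10 genes moved together. Pearson's r was 0.92 between *SMC3* and *PDS5A*, 0.90 between *STAG1* and *PDS5A*, 0.84 between *SMC1A* and *WAPL* and 0.83 between *RAD21* and *ESCO2*. *CDCA5* ran opposite to *PDS5B* (r = -0.81) and *SMC3* (r = -0.64), and *SMC1A* opposite to *RAD21* (r = -0.79). *STAG2* had no r above 0.31 with any other member. The ES8 libraries held only 4 to 18 counts of *STAG2*, so its r do not show whether it moved with other members. All values of r given here describe libraries that share lines, groups and depth, and carry no test. Among 14173 genes with a mean CPM of at least 1, those most like *CDCA5* by the same measure were *EIF1* (r = 0.979), a start codon selection factor, *DEDD2* (r = 0.968) and *ATF4* (r = 0.964), a transcription factor of the integrated stress response. Those most like *SMC3* were *KTN1* (r = 0.977), which encodes the kinesin receptor kinectin, and the chromatin remodellers *SMARCA5* (r = 0.966) and *SMARCA1* (r = 0.963).

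The 10 genes also differed, in their medians, from the genes tested in features that had no part in choosing them. Their median was 28 exons after overlapping exons were merged, 6746 bases in the longest transcript, 67.6 kb from first to last base and 40.1% GC, against 8 exons, 3311 bases, 25.2 kb and 48.7% GC over the genes tested in the interaction. *CDCA5* stood apart in each of these, with 8 exons, 2475 bases, 17.9 kb and 55.1% GC. Fold changes were therefore also computed after a correction of each library for GC content and length, added after seeing the data. With it, the knockdown in ES8 still gave 5 genes that fell, and those that rose became 3, *CDCA5* at 0.42, *RAD21* at 0.32 and *WAPL* at 0.12, where 22.5% of all genes tested rose and 20.3% fell. Those that fell did so by less, *SMC1A* at -0.18, *SMC3* at -0.34, *STAG1* at -0.14, *PDS5A* at -0.19 and *PDS5B* at -0.30.

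Of 28 other genes of the cohesion pathway and its relatives, 26 were tested, and 4 rose and 7 fell after the knockdown in ES8, while 1 rose and 6 fell in Rh30, with the shares of all genes tested given above. Of the 6 that act at the replication fork, 4 fell in ES8 and 3 in Rh30, and these 3 were the same in both lines. *CHTF18*, of the clamp loader that helps cohesion form, fell by 0.56 in ES8 and by 0.59 in Rh30 on the log2 scale (adjusted p = 0.00206 and 1.06e-04, edgeR). *TIMELESS*, a fork protection protein, fell by 0.34 and 0.38 (adjusted p = 0.00164 and 5.95e-04), and the helicase gene *DDX11* fell by 0.36 in each (adjusted p = 0.00341 and 0.00214). Of the 9 that act in mitosis, *ESPL1*, which encodes separase, the protease that cuts RAD21, fell by 0.45 in ES8 and by 0.70 in Rh30 (adjusted p = 8.24e-04 and 9.34e-05). *HASPIN*, which encodes a histone kinase of mitosis, rose by 0.37 and 0.24 (adjusted p = 0.00545 and 0.0261) and is named since it completes the 5 called alike in both lines. The share of all genes called alike in both lines is not given here, so counts of genes shared by the lines have no background. The loader gene *MAU2*, named after its values were seen, rose by 0.24 in ES8 (adjusted p = 0.0275) and fell by 0.33 in Rh30 (adjusted p = 0.00993), and the difference was called in the interaction test (-0.55, adjusted p = 0.00845), as was that of *PLK1* (-0.31, adjusted p = 0.0482). *NIPBL*, its partner in loading, fell by 0.29 in Rh30 (adjusted p = 0.0150) and had -0.22 in ES8 (adjusted p = 0.160).

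**Figure D4:**
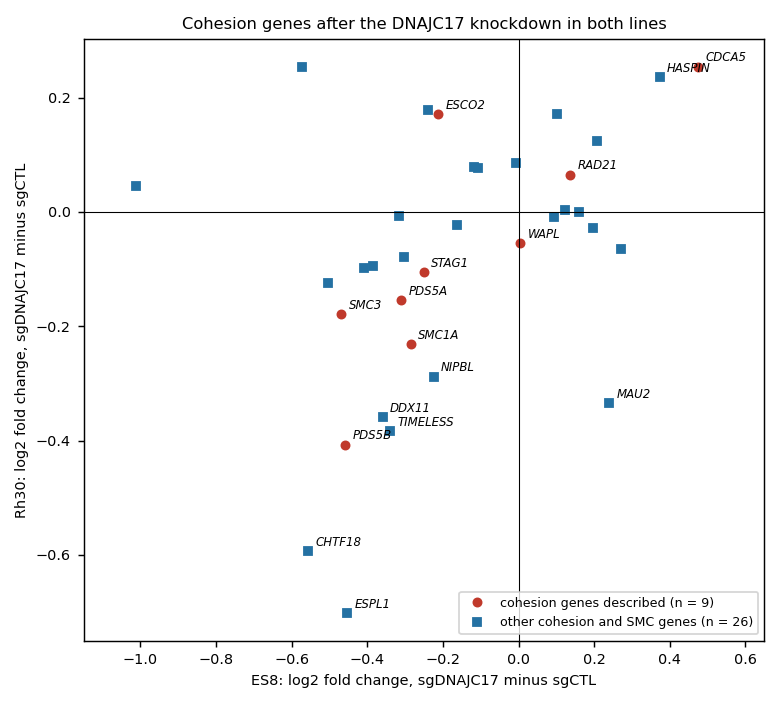
Log2 fold change of sgDNAJC17 minus sgCTL in ES8 (horizontal axis) and Rh30 (vertical axis) for 9 of the 10 genes (circles, *STAG2* left out for its few reads in ES8) and 26 other cohesion and SMC genes (squares). *CDCA5* and *HASPIN* lie at the upper right, and *ESPL1* and *CHTF18* at the lower left.

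Genes of the cell cycle and the spliceosome were counted beside *CDCA5* and *ESCO2*, whose transcripts follow the cycle. The shares of all genes tested were 13.6% up and 13.8% down in ES8 and 16.1% and 16.2% in Rh30. Of 12 genes of G2 and M, 1 rose and 4 fell in ES8, and 1 rose and 2 fell in Rh30. *UBE2C*, a ubiquitin-conjugating enzyme of mitosis, was the 1 that was called alike in both lines, with 0.35 and 0.17 (adjusted p = 0.00215 and 0.0495). Of 12 genes of the G1 to S transition, none rose and 6 fell in ES8, and 1 rose and 2 fell in Rh30. *E2F1* fell by 0.35 and 0.59 (adjusted p = 0.00816 and 5.75e-05) and the replication helicase gene *MCM3* by 0.25 and 0.19 (adjusted p = 0.00794 and 0.0257). Of 8 spliceosome genes whose loss is known to disturb *CDCA5* or cohesion, 3 rose in each line and none fell, with *SNU13* at 0.42 and 0.51 (adjusted p = 0.00246 and 1.07e-04) and *UBL5* at 0.47 and 0.26 (adjusted p = 0.00168 and 0.0121).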

How the data were processed

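The authors deposited 1 table of raw counts per library, made by their notes with Trimmomatic 0.36, STAR 2.5.2b and featureCounts (Subread 1.5.2) on GRCh38; the strand setting is not given in the sources used here. All 10 genes overlap their GRCh38 positions and 3 their GRCh37 positions. Libraries held 35342393 to 48245989 counts, and genes with few counts (*STAG2* in ES8) are limited by that depth.

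Counts were tested here in R 4.3.3 with edgeR 4.0.16 (TMM, filterByExpr, quasi-likelihood test, Benjamini-Hochberg adjustment over all genes), within the 6 libraries compared or, for the interaction, the 12 parental libraries. The script was tested on simulated data. Alternatives were an adjusted p of 0.01, a fold of 2, DESeq2 1.42.0, its size factors, library totals, no filter, 1 fit of all 18 libraries, the replicate letter as a block, a minimum of 10 counts in each library, and each library left out. A lowess correction (span 0.3) for GC content and length was added after seeing the data. Same-letter deviations correlated in all pairs only for the Rh30 knockdown (r = 0.435, 0.164 and 0.225), a hint from the data.

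The members and gene lists were chosen with earlier results of these data known. Named besides the members are *DNAJC17*, up to 4 genes per list called alike in both lines, and the 3 genes most like *CDCA5* and *SMC3*; others are marked. Marker lists were Ewing sarcoma (4 of 6 genes with at most 3 counts in every Rh30 sgCTL library), rhabdomyosarcoma (2 of 6 so in ES8 sgCTL), epithelial, and fibroblast and immune genes (sums of 10824 to 11383 in ES8 and 75 to 83 in Rh30 sgCTL). Symbols and features came from GENCODE, by Ensembl identifier, and promoters from RefSeq. Exon usage was not analysed. Python 3.11.15, numpy 2.4.6, pandas 2.3.3 and matplotlib 3.10.9 were used.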

Additional observations from a re-analysis of the deposited data

Results flagged for a closer look

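For ΔRRM against sgDNAJC17, the fitted log2 fold change of *SMC3* had opposite signs in the lines, at 0.31 in ES8 and -0.22 in Rh30. For *RAD21* the same comparison gave -0.0841 in ES8 and 0.48 in Rh30. Neither ES8 value passed the test, and the ES8 groups overlapped in both genes. Both Rh30 values were called. The difference between the lines was not tested for either gene. Without ES8 sgDNAJC17 replicate A, which stood apart from its group, the ES8 values were 0.13 for *SMC3* and -0.21 for *RAD21*.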

How the results depend on the processing

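The signs, calls and counts of the 10 genes were recomputed under each alternative. Of 707 values outside the fits that leave out a library, 634 kept their direction and side of the threshold, 40 passed it newly, 20 no longer passed it and 13 changed sign; of 534 with 1 library left out, these were 471, 7, 37 and 19. The cause was not tested where a value moved. Requiring a fold of 2 left 0 genes up and 0 down in every comparison within a line. In these comparisons only 0.0116% to 6.66% of all genes tested were up and 0.0233% to 3.36% down at that fold. Between the lines a fold of 2 left 1 up and 1 down, where 22.2% of all genes tested were up and 28.7% down. An adjusted p of 0.01 left 1 gene down in ES8, 1 in Rh30, 0 for ΔRRM against sgDNAJC17 in ES8 and 2 in Rh30. No share of all genes is given at this threshold. DESeq2 and library totals each called 5 genes down after the Rh30 knockdown, where 16.0% and 20.8% of all genes tested fell. At least 10 counts in every library left 3 genes higher in Rh30 than in ES8, where 43.2% of all genes tested were higher. In that setting *STAG2* was not tested and *SMC3* was no longer called. For ΔRRM against sgDNAJC17 in ES8, 1 gene was called up with DESeq2 and with all 18 libraries in 1 fit. In these settings 7.92% and 11.0% of all genes tested were higher. Without the filter on low counts 2 genes were called up, beside 1500 of the 32599 genes tested. The count was also 2 with the GC and length correction, alone or with the block. There 16.1% and 13.2% of all genes tested were higher. For the same comparison in Rh30, all 18 libraries in 1 fit left 2 down, where 24.2% of all genes tested were lower. The GC and length correction, alone or with the block, gave 3 up after the ES8 knockdown, where 22.5% and 22.1% of all genes tested rose. With the block it gave 6 down after the Rh30 knockdown, where 20.0% of all genes tested fell. In the interaction it gave 1 down, where 11.0% of all genes tested were up and 6.33% down. With the block it gave 2 up and 1 down there, where these shares were 13.6% and 7.72%.

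With the replicate block, 2 genes were up and 5 down after the Rh30 knockdown, where 3621 of all genes tested rose and 3614 fell. In the other comparisons at least 1 letter did not correlate, so the samples share only a letter. There the block moved the count for ΔRRM against sgDNAJC17 in ES8 from 1 down to 0, where 4.30% of all genes tested were lower. It also lost *PDS5A* in Rh30.

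Changes of sign were, with library totals, *WAPL* at -0.0394 in the ES8 knockdown, *CDCA5* at -0.10 for ΔRRM against sgCTL and *STAG2* at -0.0538 for ΔRRM against sgDNAJC17 in Rh30, and, between the lines, *CDCA5* at -0.18 and *SMC3* at -0.0369. *CDCA5* between the lines was also at -0.0593 with at least 10 counts in every library and at -0.00091 and -0.0018 with the GC and length correction, alone and with the block. *WAPL* in the ES8 knockdown was at -0.0016 with the block. With the GC and length correction, alone and with the block, *PDS5B* was at 0.0848 and 0.0846 in ES8 ΔRRM against sgCTL, and at -0.0779 and -0.0755 in the interaction. With library totals the calls over all genes tested were 1931 up and 2978 down in the ES8 knockdown, 1714 and 3207 in that of Rh30, 3585 and 7226 for ΔRRM against sgCTL in Rh30, 3220 and 6226 for ΔRRM against sgDNAJC17 there, and 640 and 1075 in the interaction; the median log2 difference between the lines moved from -0.07 to -0.28.

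Leaving out 1 library gave 1 to 2 genes up and 1 to 5 down in the knockdown of either line. In these fits 7.61% to 22.4% of all genes tested rose and 6.69% to 22.9% fell. For ΔRRM against sgDNAJC17 it gave 0 to 1 down in ES8, where 3.48% to 9.30% of all genes were lower. In Rh30 it gave 2 to 5 down, where 27.2% to 29.9% were lower. It moved *WAPL* between -0.0550 and 0.103 and *ESCO2* between -0.42 and 0.0507 in the ES8 knockdown. For ΔRRM against sgCTL it moved *ESCO2* between -0.17 and 0.00805 and *PDS5B* between -0.14 and 0.0239 in ES8 and *STAG2* between -0.11 and 0.00748 in Rh30. For ΔRRM against sgDNAJC17 in ES8 it moved *ESCO2* between -0.12 and 0.36 and *STAG2* between -0.13 and 0.83, and in the interaction *WAPL* between -0.12 and 0.0236, *PDS5B* between -0.0831 and 0.17 and *RAD21* between -0.16 and 0.0288. An arm with 2 libraries is assumed to vary like the others. Depth limits *STAG2* in ES8, where its 4 to 18 counts allow no statement on a change.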
